A study of Mus musculus with 12 samples.

Results

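Histone transcripts were followed in total RNA from sorted mouse liver cells. The genes were the rows of the deposited table whose symbol begins with Hist1h, Hist2h, Hist3h, Hist4h, H2af, H3f3 or H1f, and there were 27 such rows among 54227 gene symbols. By symbol, or by the older symbol that RefSeq lists as a synonym, 14 of them belong to the histone clusters, 6 are variant genes outside the clusters, and 7 are pseudogenes, pseudogene-like rows or an opposite-strand gene. The 14 clustered rows held 6 linker histone genes (H1f1 to H1f6), 3 of the H2A family, 3 of the H2B family and 2 of the H4 family. The 6 variant rows were H3f3a and H3f3b, which encode H3.3, and the linker genes H1f0, H1f10, H1f7 and H1f8. The table gave most other mouse histone genes newer symbols such as H2ac, H2bc, H3c and H4c, which the symbols above do not match, so the 27 rows are not the whole gene family.

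The cells came from livers of C57Bl/6 mice that carried a Sox9EGFP transgene and had fasted for 16 h, and every population, including the EGFP-negative one, came from animals with that transgene. EGFP is a green fluorescent protein, and in these mice it reports on Sox9, a transcription factor of bile duct cells. Digested liver cells were sorted by EGFP level into 4 populations, named neg, sub, low and high in order of rising signal, with 3 libraries per population and 12000 cells per library. The libraries were made with a stranded total-RNA kit for small inputs, which does not select polyadenylated RNA. The labels give neither the age nor the sex of the animals and do not say that the 3 libraries of a population came from separate animals. The column tags of same-numbered libraries recur across the 4 populations, and the labels do not say what the tags stand for, so p-values measure only the spread between these libraries.

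The libraries held 8775387 to 15535588 reads as recovered from the table, and 9039 to 12687 gene symbols were above 0 in each. Sox9 set neg apart from the other populations: its normalised count was 0.691, 0 and 0 in neg, and between 3707 and 17140 in the other 9 libraries. Its low libraries, 8838 to 17140, and its high libraries, 11793 to 13969, overlapped. Epcam, a surface marker of bile duct epithelium, was listed at 0 in all 3 neg libraries and between 592 and 6061 elsewhere. A normalised count is the authors' deposited value, in which 1 read was worth between 0.691 and 1.22 depending on the library. Many genes were listed at 0 in some libraries and at high values in others, among them genes that most cells use, so values are given library by library wherever a gene has a 0.

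Histones are the proteins around which DNA is wound. Genes in the histone clusters are transcribed mainly during DNA replication, and their messenger RNAs end in a conserved stem-loop in place of a poly(A) tail, which is why a library that does not select poly(A) can hold them. Variant histones such as H3.3 are made throughout the cell cycle from polyadenylated messenger RNAs and are placed into chromatin without replication, and the linker variant H1.0, encoded by H1f0, is known from cells that have stopped dividing.

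The stem-loop was searched for in the annotated protein-coding transcripts of the clustered and variant rows. The pseudogene and opposite-strand rows have other transcript types and were not searched. The letters searched were GGNNNTTNTNANNNCC on the transcript strand, with the outer 6 letters on each side required to pair base for base. These letters stood in 9 of the 14 clustered rows, were not found in the other 5, and stood in 0 of the 6 variant rows. Under newer symbols they stood in 37 of 53 clustered rows and in 1 of 10 variant rows, H2ax, so they do not separate the classes cleanly. Of 58797 protein-coding transcripts in the GENCODE M21 annotation of GRCm38, 0.153% held them anywhere and 0.039% held them in the last 100 bases. The stem-loops of the 4 linker genes and of 3 core histone genes are shown. The number of bases annotated after the stem-loop, given below, differs between these sets. The capitals mark the 16 letters of the stem-loop, and the sequences are GENCODE M21 transcript sequence, written 5′ to 3′.
H1f2: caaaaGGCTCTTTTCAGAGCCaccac
H1f3: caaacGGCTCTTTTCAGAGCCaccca
H1f4: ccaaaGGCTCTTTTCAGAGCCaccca
H1f6: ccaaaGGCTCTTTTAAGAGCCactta
Hist1h2ao: aaaaaGGCTCTTTTCAGAGCCatcca
Hist1h2bp: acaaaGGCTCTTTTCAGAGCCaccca
Hist1h4m: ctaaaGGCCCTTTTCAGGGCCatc

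On GRCm38 these stretches lie at chr13:23739507-23739532 for H1f2, chr13:23555782-23555807 for H1f3, chr13:23621777-23621802 for H1f4, chr13:23696520-23696545 for H1f6, chr13:21810893-21810918 for Hist1h2ao, chr13:21787918-21787943 for Hist1h2bp and chr13:21812124-21812147 for Hist1h4m, with H1f4 on the minus strand and the others on the plus strand. Positions within the stem-loop are counted from 1 at its 5′ end and relative to that of H1f2. The stem-loop of H1f6, the testis linker histone gene, carried C10A, in the loop. Hist1h4m carried T4C and A13G, a pair of changes on opposite sides of the stem, and the same pair stood in Hist1h4n. The other 5 rows with these letters, H1f3, H1f4, Hist1h2ao, Hist1h2ap and Hist1h2bp, had the 16 letters of H1f2 unchanged. The stem-loop was followed by 840 annotated bases in H1f2, 1153 in H1f4, 4884 in H1f3 and 185 in H1f6. By contrast it was followed by 3 annotated bases in Hist1h4m, 31 in Hist1h2ao and 38 in Hist1h2bp.

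Of the 27 rows, 15 were above 0 in at least 1 library and 12 were listed at 0 in all 12. Among these rows the variant genes gave most of the signal. The 6 variant rows summed to between 4002 and 12389 normalised counts per library, and the 14 clustered rows to between 0 and 1782. H3f3b alone made up 68.3% of the variant sum over the 12 libraries, from 37.8% to 86.1% in single libraries, and H1f2 made up 67.1% of the clustered sum, from 0% to 100% in the 11 libraries where that sum was above 0. All 27 rows together came to between 0.0424% and 0.115% of a library's summed values. Both H3f3b and H1f0 were above 0 in every library, and H3f3a in 11 of 12, whereas no clustered row was above 0 in all 12.

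**Figure D1:**
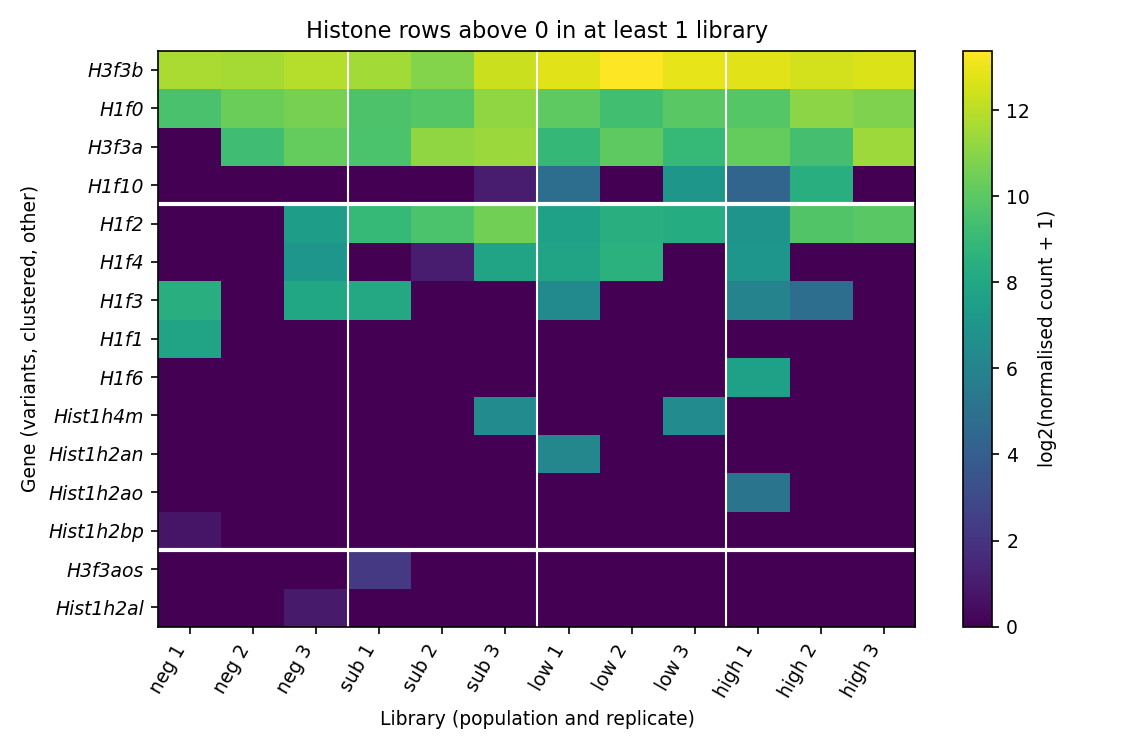
Each cell is the log2 of the normalised count plus 1 of a histone row (vertical axis) in 1 library (horizontal axis, 3 libraries in each of 4 EGFP populations). The 15 rows above 0 in at least 1 library are shown, with the variant genes on top, the clustered genes in the middle and other rows at the bottom. The 3 upper variant rows are filled almost throughout, and below H1f2 most cells of the clustered rows are at 0.

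Differences between populations were tested with limma, a linear model that shares information on the spread across genes, on log2 of the normalised count plus 1. The 16128 rows with a mean of at least 10 over the 12 libraries were fitted together, p-values were adjusted over all of them by the method of Benjamini and Hochberg, and a row was called at an adjusted p under 0.05. Of the 27 histone rows, 10 passed that filter: H3f3b, H3f3a, H1f0, H1f10, H1f2, H1f4, H1f3, H1f1, H1f6 and Hist1h4m. Only 1 of them, H3f3b, was called, in low against neg and in the F test over the 4 populations. The background in these fits was 4.69% of all tested rows called in low against neg, 2.55% as higher, and 4.23% in the F test. In sub against neg, where 1.19% of all rows were called, low against sub (0.744%), high against neg (4.69%), high against sub (0.986%) and high against low (0.0%), limma called 0 of the 10. At an unadjusted p under 0.05 limma counted 2 histone rows in sub against neg (9.54% of all rows), 1 in low against sub (10.2%) and 2 in low against neg (16.0%). It counted 3 in high against neg (16.4%), 1 in high against sub (10.2%) and 0 in high against low (4.24%). The edgeR quasi-likelihood test on recovered reads of 10 libraries called 0 histone rows in each of the 6 comparisons, and DESeq2 on the same reads called 1, H3f3b, in low against sub and 0 in the other 5. DESeq2 gave an adjusted p for only 6 or 7 of the 10 in each comparison, and for H1f2, H1f1 and Hist1h4m in 0 of the 6 comparisons, so its counts do not bear on those genes. The share of all tested rows that edgeR called was 1.58% in sub against neg, 1.68% in low against sub, 0.459% in high against low, 4.53% in low against neg, 3.96% in high against neg and 1.67% in high against sub. For DESeq2 the shares, of the rows with an adjusted p, were 15.1%, 13.5%, 5.93%, 16.7%, 16.9% and 13.2% in the same order, so its 1 of 7 in low against sub is close to that background. In the test over all 4 populations edgeR called 1 histone row, with 4.46% of all rows called, and DESeq2 called 0 of the 5 it gave an adjusted p, with 8.71% of rows called.

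H3f3b, on the minus strand of chromosome 11 (chr11:116021912-116027962, GRCm38, ENSMUSG00000016559.14), is 1 of the 2 genes that encode H3.3, the variant that replaces canonical H3 outside replication. Its normalised counts were 3256, 3079 and 3800 in neg and 2916, 1923 and 5014 in sub. They were 6911, 10663 and 7604 in low and 7038, 5587 and 6533 in high. The 6 low and high libraries, from 5587 to 10663, all lay above the 6 neg and sub libraries, from 1923 to 5014, a separation found in 1.3% of all tested rows. Taken pair by pair, a row's low libraries lay above those of neg in 8.38% of tested rows and above those of sub in 5.75%, and its high libraries above those of neg in 10.2% and of sub in 7.2%.

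Mean H3f3b was 3378 ± 376 (SD, n = 3) for neg, 3285 ± 1578 for sub, 8393 ± 1997 for low and 6386 ± 736 for high. The order from the highest was therefore low, high, neg and sub, and neither low and high nor neg and sub differed beyond their spread, since their libraries overlapped. The mean in low was 2.48 times that in neg, and H3f3b rose in low against neg by 1.29 ± 0.35 (SE) on the log2 scale (limma adjusted p = 0.0386). Between all 4 populations the F test gave an adjusted p of 0.0333. That call was lost with no filter, with no variance trend and in most fits that left out a single library. In high the mean was 1.89 times that in neg, with a log2 difference of 0.92 and a limma adjusted p of 0.165. Against sub, the log2 difference was 1.44 in low (limma adjusted p = 0.0623) and 1.06 in high (limma adjusted p = 0.201). Between sub and neg it was -0.15 (limma adjusted p = 0.978). Between high and low it was -0.38 (limma adjusted p = 1).

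The call of H3f3b in low against neg rested on every library of the populations compared. Without any single neg, low or high library, or without sub replicate 1, its limma adjusted p lay between 0.0686 and 0.172, while without sub replicate 2 it was 0.022 and without sub replicate 3 it was 0.0194. On the reads recovered from 10 libraries the adjusted p was 0.0771 with edgeR and 0.0741 with DESeq2, and the log2 difference was 1.40 and 1.32. Over 25 alternative settings the log2 difference stayed between 1.11 and 1.43 and the adjusted p between 0.0194 and 0.561, with 9 settings under 0.05. Not counted among the 25 is an added limit of 1 on the log2 difference, which leaves the p-value as it is and which H3f3b passed. In low against sub, H3f3b passed the threshold in 3 of 25 settings, among them DESeq2 at an adjusted p of 0.0243.

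**Figure D2:**
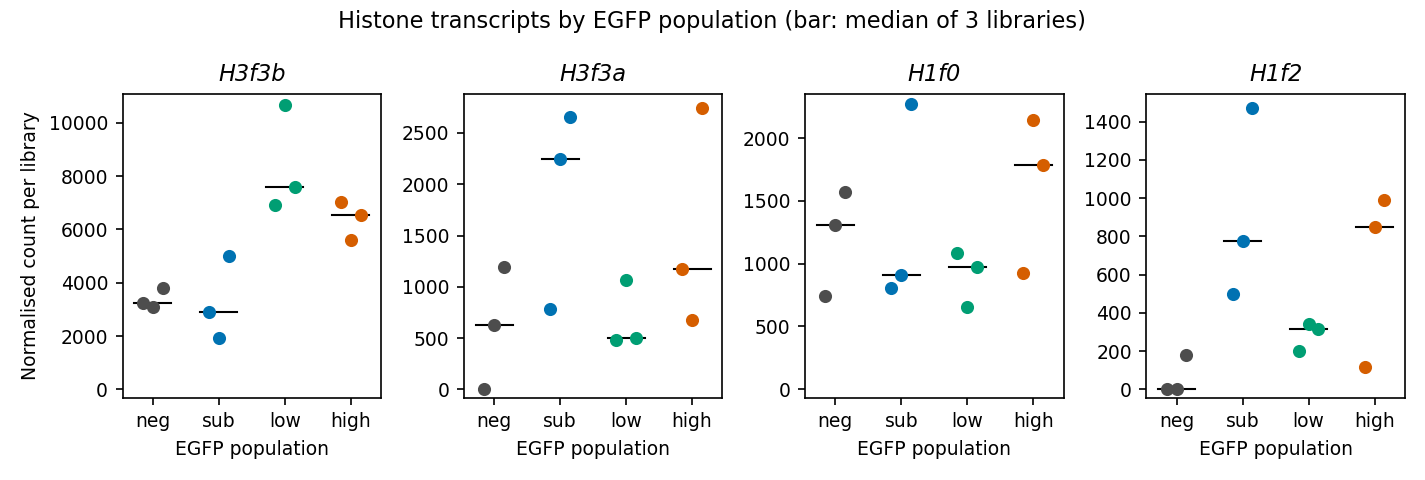
Normalised count per library (vertical axis, linear) of H3f3b, H3f3a, H1f0 and H1f2 in the 4 EGFP populations, with 1 point per library and a bar at the median of 3 libraries. For H3f3b the low and high points, 5587 to 10663, lie above all neg and sub points, while the points of H3f3a and H1f0 overlap between populations; for H1f2 the sub points lie above the low and neg points.

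**Figure D3:**
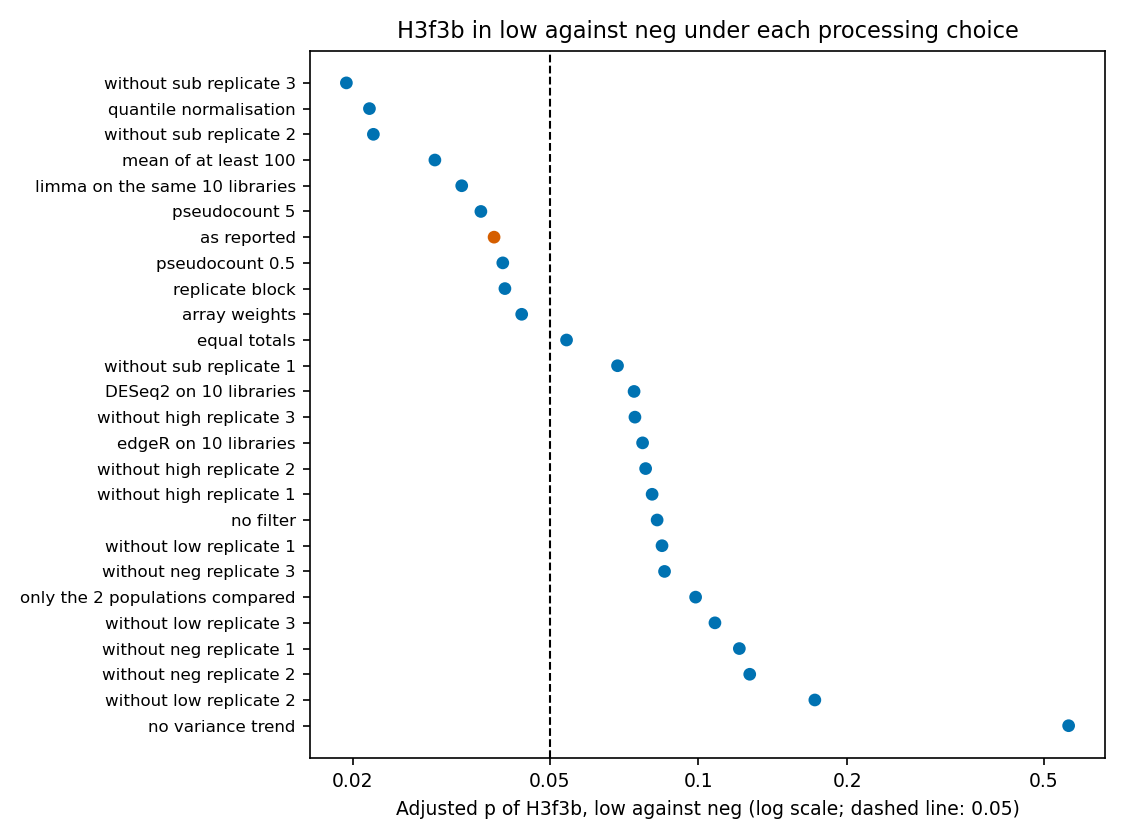
Adjusted p of H3f3b in low against neg (horizontal axis, log scale) as reported, in orange, and under 25 alternative settings, in blue, named on the vertical axis. The dashed line stands at 0.05; 9 alternatives lie to its left and 16 to its right, from 0.0194 to 0.561.

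Markers of several cell types also differed between the populations. In sub against neg 7 of 13 tested biliary markers and 3 of 13 tested hepatocyte markers were called higher by limma. Of 12 endothelial markers limma called 0 in sub against neg, with 1 at an unadjusted p under 0.05, while edgeR called 4 and DESeq2 0. Of 12 endothelial markers 11 were called lower in low than in neg, and their summed normalised count was 150811 to 215359 for neg, 41897 to 55082 for sub, 1008 to 2906 for low and 631 to 1520 for high. Of 12 stellate and mesenchymal markers 8 were called lower in low than in neg, with sums of 22186 to 35889 for neg, 26783 to 36403 for sub, 628 to 2625 for low and 487 to 1935 for high. Of 13 biliary markers tested, 10 were called higher in low than in neg, and the sums were 344 to 689 for neg, 24658 to 44485 for sub, 87028 to 108121 for low and 80711 to 84825 for high. Of 13 hepatocyte markers tested, 4 were called higher in low and 6 in high than in neg, and the sums were 664 to 1550 for neg, 9828 to 11539 for sub, 16194 to 23863 for low and 21288 to 25097 for high. In low against sub, where 0.744% of all tested rows were called, limma called 5 endothelial and 5 stellate and mesenchymal markers, all lower. It called 0 of 13 biliary and 0 of 13 hepatocyte markers there. Of 5 Kupffer cell and macrophage markers tested, limma called 1 as higher in low against neg and 1 in high against neg. No lymphocyte or erythroid marker was called by limma in any comparison. The part of these cell types in the difference of H3f3b was not tested. In bulk libraries such as these, a change in the share of a cell type and a change in RNA per cell cannot be told apart.

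Near-identical copies can share reads with H3f3b, since 11.2% of the 31-base words of its transcripts also occurred in transcripts of other genes. The 3 rows that shared most with it, Gm6485, Gm37486 and Gm43584, were at 0 in all libraries but 1 each. There they reached 1.14, 1.38 and 59.6, against at least 1923 for H3f3b.

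H3f3a, on the minus strand of chromosome 1 (chr1:180800832-180813943, ENSMUSG00000060743.12), is the other gene for H3.3 and encodes the same protein. Its normalised counts were 0, 630 and 1197 in neg, 783, 2250 and 2659 in sub, 483, 1071 and 498 in low, and 1171, 680 and 2747 in high. Of the 31-base words of H3f3a 17.5% also occurred in other genes. Its spread within populations, a residual SD, was 2.93 on the log2 scale. The populations overlapped in every pair, and H3f3a was not called anywhere. Its log2 differences were 4.20 in sub against neg (limma adjusted p = 0.445) and 3.83 in high against neg (limma adjusted p = 0.298), and both took in the neg library listed at 0. H3f3aos, an annotated gene on the strand opposite to H3f3a, was at 3.68 in sub replicate 1 and at 0 in the other 11 libraries; the use of strand in the counting is not given in the sources used here.

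The balance between the 2 H3.3 genes can be read within a library. H3f3b made up 90.9% to 93.9% of the summed H3f3a and H3f3b values in low, 70.4% to 89.1% in high, 76.1% to 100% in neg and 46.1% to 78.8% in sub. The low libraries thus lay above those of sub and of high, and overlapped those of neg, in which 1 library had H3f3a at 0. No share over other gene pairs is set beside this separation, and the ratio carries the scatter of H3f3a. Both genes summed to 3987 ± 903 (SD, n = 3) for neg, 5182 ± 2171 for sub, 9077 ± 2329 for low and 7918 ± 1527 for high. Per kilobase of the longest annotated transcript, the mean level over the 12 libraries was 2132 for H3f3b and 416 for H3f3a.

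H1f0, on the plus strand of chromosome 15 (chr15:79028450-79030504, ENSMUSG00000096210.2), encodes the linker histone H1.0. Its normalised counts were 746, 1307 and 1567 in neg, 803, 909 and 2274 in sub, 1082, 654 and 976 in low, and 924, 2144 and 1782 in high. The population means ran from 904 ± 223 (SD, n = 3) in low to 1617 ± 626 in high, and all populations overlapped. No comparison called H1f0. Its spread within populations, a residual SD of 0.62 on the log2 scale, was smaller than that of all but 5.02% of the tested rows, and for H3f3b the residual SD was 0.40, with 1.62% of rows below it. Highly expressed rows vary less: the 2053 rows with a mean of at least 1000 had a median residual SD of 0.77.

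H1f10, the gene of the linker variant H1.10, gave few and scattered values. It was at 0 in neg and at 0, 0 and 0.997 in sub, while low had 27.5, 0 and 135 and high had 19.9, 352 and 0. Each of the low and high populations thus had a library at 0, and H1f10 was not called in any comparison. The other linker variants, H1f7 of the testis and H1f8 of the oocyte, were listed at 0 in all 12 libraries. Per kilobase, H1f0 had a mean level of 615 and H1f10 of 36.6 over the 12 libraries.

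Of the 6 clustered rows tested, H1f2 had the highest mean level over the 12 libraries per kilobase of transcript, 307, although in neg H1f1 was higher, at 100 against 38.6. H1f2 encodes the linker histone H1.2 and lies on the plus strand of chromosome 13 (chr13:23738808-23740367, ENSMUSG00000036181.2). Its normalised counts were 0, 0 and 181 in neg, 497, 777 and 1473 in sub, 203, 340 and 314 in low, and 119, 848 and 992 in high. The sub libraries lay above all those of neg, as 4.69% of tested rows did, and also above all those of low, a separation in that direction found in 5.99% of tested rows. The low libraries lay above those of neg, as did 8.38% of tested rows, and high overlapped with each of the other 3 populations.

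These differences of H1f2 did not pass the threshold. Its log2 difference from neg was 7.20 ± 2.0 (SE) in sub (limma adjusted p = 0.109), 5.63 in low (limma adjusted p = 0.137) and 6.36 in high (limma adjusted p = 0.0804). With 2 neg libraries listed at 0, the size of these differences depends on the pseudocount of 1 and is not a fold. A single library decided them: without neg replicate 3, the neg library above 0, H1f2 was called against neg in sub (limma adjusted p = 0.00235), low (0.00564) and high (0.00316). With edgeR on 10 libraries the adjusted p was 0.687 in sub, 0.765 in low and 0.632 in high. Of its 31-base words 11.4% also occurred in other genes, the linker genes H1f3, H1f4 and H1f5 sharing most.

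The other clustered linker genes were above 0 in fewer libraries. H1f4, the gene of H1.4, was at 0, 0 and 130 in neg, 0, 1.14 and 223 in sub, 226, 369 and 0 in low, and 131, 0 and 0 in high. H1f3, the gene of H1.3, was at 330, 0 and 254 in neg, at 273, 0 and 0 in sub, at 83.1, 0 and 0 in low, and at 62.3, 27.3 and 0 in high. Neither was called in any comparison, and each was above 0 in 6 of the 12 libraries, with at least 1 in every population. H1f1 was above 0 in a single library, neg replicate 1, at 223, and H1f6 in high replicate 1 only, at 204. H1f5 was listed at 0 throughout. H1f4 overlaps the H2B gene that the table calls H2bc6 on the same strand, and 34.7% of its 31-base words also occurred in other genes, so its values carry that uncertainty.

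Core histone genes of the clusters were listed at 0 in most libraries in these rows. Hist1h4m, an H4 gene, was at 85.8 in sub replicate 3, at 85.5 in low replicate 3 and at 0 in the other 10 libraries, and 91.7% of its 31-base words occurred in other genes, mainly of the same family. Hist1h2an, an H2A gene, was at 71.2 in low replicate 1, and Hist1h2ao, of the same family, at 34.6 in high replicate 1. Hist1h2bp, an H2B gene, was at 0.691 in neg replicate 1. That value is the worth of 1 read in that library. Hist1h2ap, Hist1h2bq, Hist1h2br and Hist1h4n were listed at 0 in all 12. The pseudogene and opposite-strand rows gave nothing beyond H3f3aos and 0.966 for Hist1h2al in neg replicate 3.

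The 14 clustered rows summed to 554, 0 and 565 in neg, 771, 779 and 1782 in sub, 583, 709 and 399 in low, and 550, 875 and 992 in high. The sub libraries lay above those of neg and low, and overlapped those of high. The means were 373 ± 323 (SD, n = 3) for neg, 1111 ± 582 for sub, 564 ± 155 for low and 806 ± 229 for high. Without H1f2 the means were 313 for neg, 195 for sub, 278 for low and 153 for high, so the order of the populations was not kept. The 6 variant rows had mean sums of 5194 ± 1290 for neg, 6511 ± 2991 for sub, 10035 ± 2069 for low and 9659 ± 1230 for high. Without H3f3b they were 1816, 3227, 1642 and 3273 in the same order. The low libraries summed to at least 8504 with H3f3b, above every neg library, of which the highest was 6564.

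Across the 10 rows tested, the median log2 difference was 1.72 in low against neg, with 6 rows higher and 3 lower. Over all 16128 rows that median was 0.00, with 47.6% of rows higher. In high against neg the histone median was 0.66, with 7 higher and 2 lower, beside 0.13 and 51.9% for all rows. In sub against neg it was 0.19, with 6 higher and 3 lower, beside 0.00 and 44.4%. In low against sub it was 0.00, with 3 higher and 5 lower, beside 0.00 and 49.3%. In high against sub it was 0.18, with 5 higher and 4 lower, beside 0.20 and 53.3%, and in high against low 0.52, with 6 higher and 3 lower, beside 0.00 and 49.8%. The 10 rows passed a filter on their mean, and the median standard error of their differences was 1.95, so these medians describe the rows and carry no test. Of the 10, 2 were above 0 in all 12 libraries (20%), beside 19.8% of all tested rows, and 6 were at 0 in at least 6 libraries (60%), beside 44.4%.

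The clustered genes differed in how far their annotated transcripts run past the stem-loop. The 4 clustered rows with over 100 bases annotated after it, H1f2, H1f3, H1f4 and H1f6, were all above 0 somewhere, and the median of their mean levels was 88.0. The 5 rows annotated to end within 100 bases of it had 3 above 0 and a median of 0.1. Of the 5 rows without the letters, 2 were above 0. Per kilobase the split was not clean, since Hist1h4m, with a short end, had a mean level of 35.5, above H1f6 at 18.7 and H1f3 at 11.6. With the clustered genes under newer symbols added, 16 of 23 rows (69.6%) with a long annotated end were above 0, 9 of 23 (39.1%) with a short end, and 11 of 21 (52.4%) without the letters. Over these rows the median of the mean levels was 19.4 with a long end and 0.0 with a short one. The highest mean level, however, was 490 with a short end and 479 with a long one. The sharing of sequence and the transcript length moved with this split: among the 27 rows' clustered genes, the median share of 31-base words found in other genes was 7.45% with a long end and 91.7% with a short one, and the median transcript was 1745 against 480 bases long. The part of each in the levels was not tested.

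**Figure D4:**
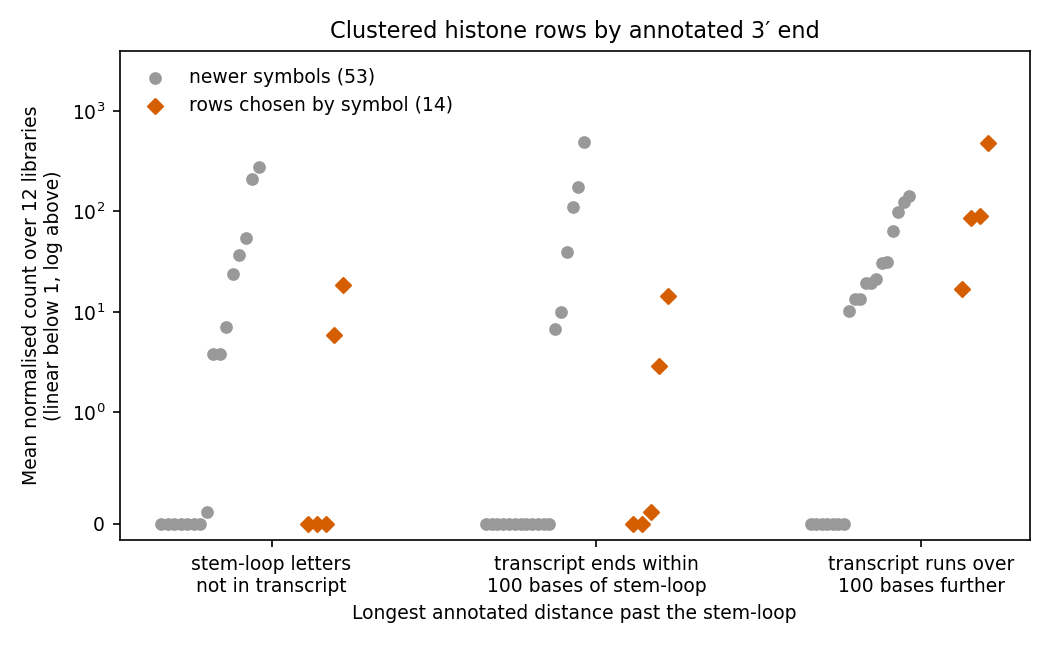
Mean normalised count over the 12 libraries (vertical axis, linear below 1 and logarithmic above) of clustered histone rows, split on the horizontal axis by whether the stem-loop letters are in the transcript and how many annotated bases follow them. Orange diamonds are the 14 rows chosen by symbol and grey circles are 53 rows under newer symbols; the 4 diamonds with a long annotated end are all above 0, while 5 of the other 10 are at 0.

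Genes that process histone messenger RNA were compared from a list of 22, of which 19 were in the table and tested. In low against neg and in high against neg limma called 1 of the 19, close to the 4.69% of all tested rows called in each, and in the other 4 comparisons 0, while edgeR called 0 in all 6 and DESeq2 between 0 and 2 of the 12 with an adjusted p, beside 5.93% to 16.9% of all such rows. That gene was Tut7, a terminal uridylyltransferase that adds uridines to RNA 3′ ends, histone messenger RNA among them. Its normalised counts were 8494, 11447 and 7516 in neg, 5232, 6316 and 4066 in sub, 2264, 5456 and 3501 in low, and 3700, 2677 and 1999 in high. The neg libraries lay above all others, as in 2.46% of tested rows. Tut7 fell by 1.36 ± 0.37 (SE) on the log2 scale in low against neg (limma adjusted p = 0.0409) and by 1.73 ± 0.37 in high against neg (limma adjusted p = 0.00876). Of 25 alternative settings, 7 called it in low and 16 in high. Slbp, which encodes the protein that binds the stem-loop, was at 731, 258 and 812 in neg, 705, 894 and 3.99 in sub, 1095, 884 and 385 in low, and 434, 782 and 296 in high. Its populations overlapped, and it was not called.

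Histone chaperones and deposition factors were compared from a list of 26, of which 24 were tested. Rbbp7, a subunit of chromatin assembly and deacetylase complexes that binds histones H3 and H4, was the 1 gene of the 24 that limma called, beside 1.19% of all tested rows in sub against neg and 4.69% in high against neg. It was listed at 0 in all 3 neg libraries and was at 939, 1002 and 1383 in sub, 606, 0 and 580 in low, and 1364, 555 and 1527 in high. The call was made in sub against neg (limma adjusted p = 0.0322) and in high against neg (limma adjusted p = 0.0136). Since neg was listed at 0, no fold is given. Both edgeR and DESeq2 called Rbbp7 and no other gene of the list, in the same comparisons and also in low against neg, where the limma adjusted p was 0.164. It was called in 9 of 25 alternative settings in sub and in 18 of 25 in high.

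Genes of DNA replication and mitosis were set beside the histones because clustered histone transcription is tied to replication. Of 27 replication genes 19 were tested, and limma and edgeR called 0 of them in each of the 6 comparisons, with at most 1 at an unadjusted p under 0.05 in limma, while DESeq2 called between 0 and 4 of the 11 that it gave an adjusted p, beside 5.93% to 16.9% of all such rows. Their summed normalised counts were 4911 ± 652 (SD, n = 3) for neg, 3706 ± 1020 for sub, 4417 ± 456 for low and 2610 ± 1266 for high. Of 18 mitosis genes 10 were tested, of which limma and edgeR called 0, with at most 2 at an unadjusted p under 0.05 in limma. DESeq2, with the same shares of all rows, called 1 of 7 in sub against neg and in high against neg. In each of the other comparisons it called 2 of 7. Ccna2, Cdk1, Aurkb and Plk1 were at 0 in all 12 libraries. Pcna, the replication clamp, was at 392, 600 and 1253 in neg, 501, 412 and 0 in sub, 355, 729 and 556 in low, and 139, 1169 and 0 in high. Mki67, a protein of cycling cells, was at 585, 42.8 and 485 in neg, 137, 779 and 0 in sub, 0 in all 3 low libraries, and 184, 3.03 and 0 in high. Top2a, a topoisomerase of dividing cells, reached 357 for neg, 25.8 for sub, 61.6 for low and 180 for high, and was at 0 in 6 of the 12 libraries.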

How the data were processed

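Values came from 1 table deposited by the authors. It gives a signal, the normalised count, for every gene symbol in each of 12 libraries. The submitters' processing notes name Salmon, DESeq2 1.26.0 and mm10, without their roles; the annotation, filters and use of strand are not given in the sources used here. Each column matched 1 sample by its description, and populations and replicate numbers came from sample titles. In all 12 columns 100% of values were whole multiples of the column's smallest value (tolerance 0.01 read), which gave reads per library. In 2 libraries, sub replicate 3 and high replicate 2, 1 read was worth close to 1, so the count tests used the other 10.

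The deposited signal was analysed as log2(value + 1) with limma 3.58.1 in R 4.3.3 (variance trend, all 12 libraries, rows with a mean of at least 10, two-sided, Benjamini-Hochberg over 16128 rows). Alternatives were pseudocounts of 0.5 and 5, no filter or a mean of at least 100, equal totals, quantile normalisation, array weights, a replicate block, eBayes without a variance trend, a fit of just the 2 populations in question, leaving out each library, an added limit of 1 on the log2 difference, and edgeR 4.0.16 and DESeq2 1.42.0 on recovered reads. The models were tested on simulated data, where limma and edgeR recovered most but not all of the known changes. That was fewer than first required, and the requirement was then lowered. The simulation used all 12 libraries and the same set spread for every gene, and raised only genes with a mean above 100 reads. Of the 10 histone rows tested, 6 were at 0 in at least 6 libraries, so the simulation does not give the power for such rows. A row not called may therefore still differ. Sums and lists were described without a test.

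The histone rows and gene lists were chosen with earlier results of these data known. Named genes were every called or tested variant histone gene, the 12 highest clustered genes (9 were above 0), and Slbp, Mki67, Top2a and Pcna. Every gene of 4 pathway lists that limma called was also named, while genes of these lists that only DESeq2 called were not. Coordinates, transcripts and the shared 31-base words came from GENCODE M21 (GRCm38), and symbol synonyms from RefSeq.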

Additional observations from a re-analysis of the deposited data

How the results depend on the processing

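No direction of a called result turned under any alternative run. In low against neg the count of histone rows called, 1, became 0 with no filter on low values, with values scaled to equal totals, with no variance trend, with only the 2 populations compared, with edgeR and with DESeq2, and it was 0 to 1 when single libraries were left out. The 1 call without neg replicate 3 was H1f2 and not H3f3b. In the F test the count of 1 became 0 with no filter, with no variance trend and with DESeq2. It was 0 to 1 when single libraries were left out, and 0 in most of those fits. Without neg replicate 3 the 1 call of the F test was H1f2 (adjusted p = 0.00615) and not H3f3b. In low against sub the count of 0 became 1 with DESeq2 and with limma on the same 10 libraries, and was 0 to 1 without single libraries. It was also 0 to 1 in sub against neg and in high against neg, and stayed at 0 in high against low and high against sub. With no filter 15 histone rows entered the fit instead of 10, and fits on fewer libraries had fewer degrees of freedom; beyond that, the cause was not tested.

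Without their highest gene the clustered sums were 195 for sub against 1111, 278 for low against 564, and 153 for high against 806. The variant sums were 1816 against 5194 for neg, 3227 against 6511 for sub, 1642 against 10035 for low, and 3273 against 9659 for high. Leaving out 1 library gave clustered sums of 277 to 560 for neg, 775 to 1280 for sub, 491 to 646 for low and 713 to 933 for high. The variant sums were then 4509 to 5790 for neg, 4793 to 7515 for sub, 8858 to 10801 for low and 8957 to 10107 for high.

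Libraries that share a replicate number did not deviate together: over 18 such pairs the correlation of deviations from the population means was -0.016 to 0.027, and over 36 other pairs -0.045 to 0.023. With the replicate number as a block, H3f3b in low against neg had an adjusted p of 0.0406, and the block changed no count of histone rows called. A listed 0 allows up to 3 reads, and such limits cover counting error only.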

Other observations

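The table names most histone genes by newer symbols, and 66 such rows that the symbols above do not match were collected after the table had been seen. They held 53 clustered genes, 10 variant genes and 3 pseudogenes; 34 were above 0 in at least 1 library and 29 were tested. Of the 29, limma called 0 in each of the 6 comparisons and in the F test, and at an unadjusted p under 0.05 it counted 1 in sub against neg (9.54% of all tested rows), 2 in low against sub (10.2%), 3 in high against low (4.24%), 1 in low against neg (16.0%), 2 in high against neg (16.4%) and 3 in high against sub (10.2%). With edgeR on 10 libraries 0 were called. Of the rows with an adjusted p, DESeq2 called 4 of 16 in high against sub (13.2% of all such rows) and 3 of 14 in low against sub (13.5%). It called 2 of 13 in sub against neg (15.1%) and 2 of 14 in low against neg (16.7%). In high against neg it called 1 of 13 (16.9%) and in high against low 1 of 16 (5.93%). With these rows added, the 67 clustered genes summed to 3166 ± 975 (SD, n = 3) for neg, 2284 ± 721 for sub, 1804 ± 433 for low and 3766 ± 1401 for high, so high and not sub then had the highest mean. The low libraries, 1310 to 2121, lay below those of high, 2493 to 5267, and of neg, 2567 to 4291, and overlapped those of sub. Over the 14 rows alone, low had a higher mean than neg, 564 against 373. The 16 variant genes together summed to 7132 ± 992 for neg, 8749 ± 2903 for sub, 11599 ± 1883 for low and 11245 ± 1319 for high, and H3f3b is part of that sum.

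Some of these rows are named here after their values were seen. H4c14, an H4 gene, was at 1.38, 0 and 0 in neg and 0, 0 and 0.997 in sub, against 9.65, 79.9 and 78.9 in low and 77.9, 4.04 and 4.08 in high. Its low and high libraries did not overlap those of neg and sub, as in 1.3% of tested rows, but the values near 4 in high are a few reads, close to the limit of 3 reads that a listed 0 allows, and its limma adjusted p was 0.258 in low against neg. H4c4, of the same family, was at 175, 383 and 702 in high and at or under 175 in the other 9 libraries, with a limma adjusted p of 0.167 in high against sub. Clustered H4 genes as a whole summed to 388, 741 and 1697 in high, 307, 118 and 251 in low, 0.737, 0 and 86.8 in sub, and 1430, 234 and 0.966 in neg. H2ac18, an H2A gene, was at 226, 2371 and 560 in neg, at 198, 0 and 0 in sub, at 353, 0 and 442 in low and at 0, 669 and 1064 in high, with a limma adjusted p of 0.477 in sub against neg; 89.7% of its 31-base words also occurred in other genes. H2az1, which encodes the variant H2A.Z, reached 1886 in sub replicate 2 and was at 0 in neg replicate 2 and low replicate 2. Macroh2a1, the gene of a large H2A variant, was above 0 in all 12 libraries, from 1.47 to 1428.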
